A study of Mus musculus with 4 samples.

Results

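The extracellular matrix genes followed here were 44 genes for collagens, laminins, proteoglycans and matrix glycoproteins, chosen by name and matched to array probes by RefSeq accession, of 20887 named genes on the array. Col12a1 had no probe matched by accession, and the other 43 genes had 61 probes. A probe was kept if at least 3 of the 4 arrays showed it well above background for a genotype. This left 37 genes, each read by its brightest kept probe. Col6a3, Col14a1, Col15a1, Col25a1, Lama4 and Postn had no kept probe, so no ratio is given for them. The genes were described in 5 classes: 9 fibrillar collagens, 11 other collagens, 11 basement membrane genes, 7 genes of the brain matrix, and 6 stromal glycoproteins and small proteoglycans.

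The cultures were differentiated neural precursor cells of day 13 embryonic telencephalon (C57BL/6 mice), either wild type (WT) or carrying the APPswe/PS1dE9 transgenes of familial Alzheimer's disease. As background on the mouse line of that name, both transgenes, a Swedish-mutant APP and a human presenilin 1 lacking an exon, are driven by the mouse prion promoter. All cultures were expanded as neurospheres in EGF and FGF2, each at 20 ng/ml, for 5 days and kept for 7 days without them on plastic coated with poly-L-lysine and laminin. Each of 4 two-colour arrays paired 1 APPswe/PS1dE9 culture with 1 WT culture, so there were 4 cultures per genotype, and APPswe/PS1dE9 was labelled with Cy3 for replicates 1 and 2 but with Cy5 for replicates 3 and 4. The labels do not say which cultures came from separate animals or litters, so the p-values cover only the spread of these arrays within a dye orientation.

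Collagens are trimers of alpha chains. Fibrillar collagens assemble into the banded fibrils of connective tissue, whereas type IV collagen and the laminins, each an alpha, a beta and a gamma chain, form the sheets of basement membrane that in brain lie around vessels, under the pia and beneath the choroid plexus. The matrix between brain cells holds little fibrillar collagen and is built from hyaluronan, the lecticans (versican, aggrecan, brevican and neurocan) and the tenascins that crosslink them.

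Of a channel's 59305 probe spots, 47.5% to 59.6% were well above background, and 0 spots were saturated. For APPswe/PS1dE9 and WT these shares were 51.0% and 57.7% on replicate 1 and 49.5% and 47.5% on replicate 2. They were 53.2% and 48.2% on replicate 3 and 59.6% and 48.1% on replicate 4. The App probe gave log2 ratios of 0.23, 0.27, 0.00 and -0.03 (fitted 0.12 ± 0.06, limma adjusted p = 0.296). The files do not place that probe on the transcript, so it is no check of the transgene. The 2 cultures on replicate 1 and those on replicate 3 differed in Xist, at -2.85 and 3.40, and in the Y-linked Eif2s3y, at 5.02 and -5.19. On replicates 2 and 4 the Eif2s3y ratios were 0.03 and 0.14, and matrix counts from these 2 arrays are given beside the main ones.

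Of 9 measured basement membrane genes 5 were higher in the APPswe/PS1dE9 cultures, and fibrillar collagens changed in both directions. Of 7 brain matrix genes 2, the versican and tenascin C genes, were lower and 1, Sparcl1, was higher. Ratios are log2 of APPswe/PS1dE9 over WT. Fitted ratios carry their SE over 4 arrays and a limma p adjusted by Benjamini-Hochberg over 20591 features (genes, or probes without a gene match), with a threshold of 0.05. Of the 37 measured matrix genes, 11 were higher (29.7%), where 8.25% of all features were higher, and 4 were lower (10.8%), where 2.28% of all features were lower. Of these 15 genes 1, Lum, was kept only through WT, the genotype with the higher signal, so its place among the lower genes follows in part from the filter. At an unadjusted limma p under 0.05, 16 matrix genes were higher and 7 lower, where 3258 of 20591 features were higher and 2005 lower. The median ratio was 0.16 for the matrix genes and 0.01 for all features. RNA came from whole cultures, so a change in the number of cells of a type and a change in RNA per cell cannot be told apart.

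The levels of the 4 APPswe/PS1dE9 cultures and the 4 WT cultures did not overlap for 10 of the 37 genes (27.0%), against 12.4% of all features, Lum included. A ratio of 1 sign on 4 of 4 arrays was seen for 18 of the 37 (48.6%), against 28.6% of all features. Fewer genes passed limma when replicate 3 or 4 was left out. Such a fit keeps 1 array of that dye orientation, so its residual spread comes from replicates 1 and 2 alone. Calls over all features fell as well, so the lower counts do not show that the ratios rest on those arrays. Without replicate 4, limma called 1 matrix gene higher and 0 lower, when 1.79% of all features were higher and 0.0194% lower. At an unadjusted p under 0.05, 12 matrix genes were then higher and 6 lower, with no count made over all features. Without replicate 3 limma called 4 higher and 2 lower, against 2.52% and 0.141% of all features. On replicates 2 and 4 alone limma called 1 higher and 1 lower, against 2.28% and 0.0534%. The share of higher matrix genes was then near that of all features and the share of lower ones above it, but each rests on 1 gene. At an unadjusted p under 0.05, 14 were higher and 5 lower on these arrays, again with no count made over all features.

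**Figure D1:**
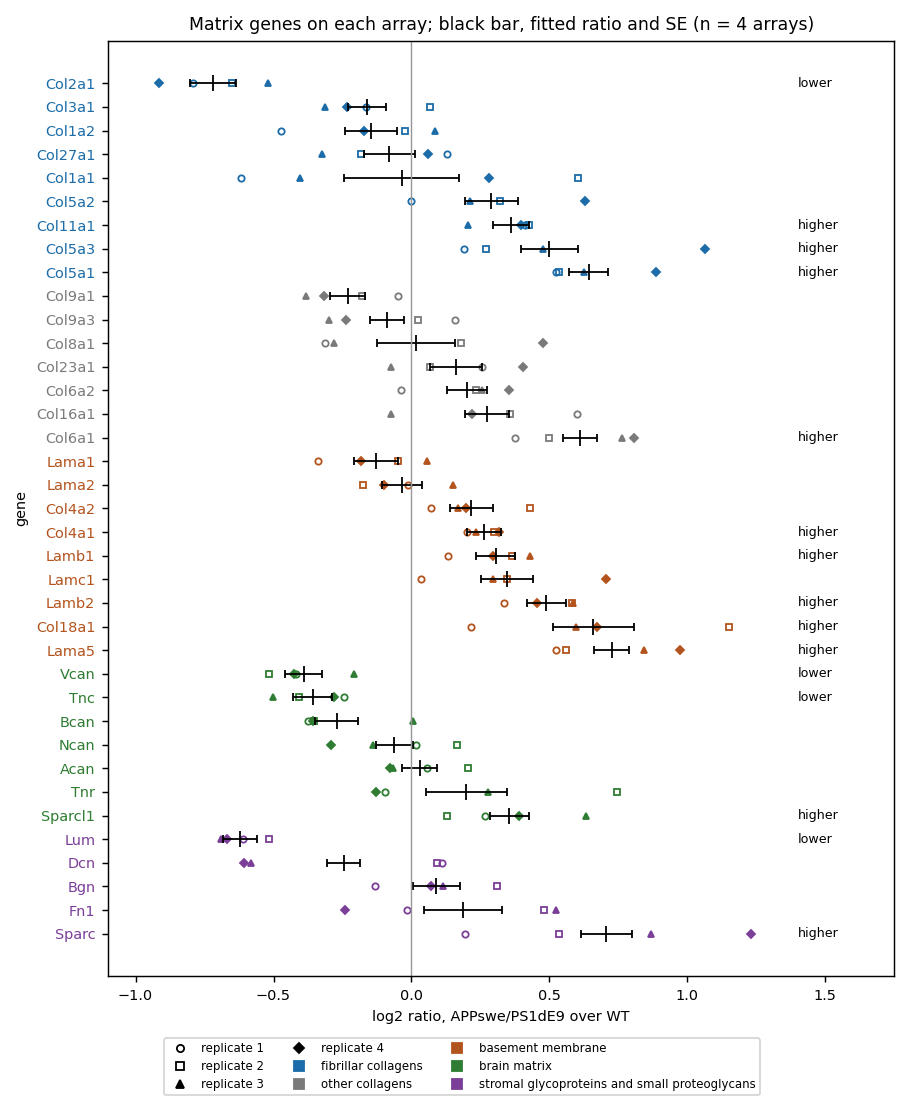
Log2 ratios of APPswe/PS1dE9 over WT (x axis) for the 37 measured matrix genes (y axis), coloured by class. Markers are the 4 arrays, open for replicates 1 and 2 and filled for replicates 3 and 4, and the black bar is the fitted ratio ± SE; the 11 higher and 4 lower genes are marked at the right, and Lama5 and Col2a1 lie at the ends with 0.72 and -0.72.

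Basement membrane genes held 5 of the 11 increases. Of the 9 measured, Lama5, Col18a1, Lamb2, Lamb1 and Col4a1 were higher, 4 did not pass and 0 were lower by limma, also at an unadjusted p under 0.05. The class median was 0.30, and the medians of the single arrays were 0.13, 0.36, 0.29 and 0.32. It was the highest fitted median of the 5 classes over the 4 arrays. On replicates 2 and 4 alone the order turned, with a fitted median of 0.41 for fibrillar collagens and 0.33 for basement membrane. Of the 9 genes 7 had 1 sign on every array.

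Lama5 encodes the laminin alpha 5 chain, a main alpha chain of mature basement membranes. Its log2 ratio was 0.52, 0.56, 0.84 and 0.97 on replicates 1 to 4. All arrays gave more signal in the APPswe/PS1dE9 culture, more so on replicates 3 and 4, and the levels of 9.64 to 10.18 (log2 normalised intensity) lay wholly above the WT levels of 9.05 to 9.34. The fit gave 0.72 ± 0.06, a 1.65-fold difference (limma adjusted p = 0.0016). Lama5 was the only called matrix gene that passed when each array was left out in turn, with its highest adjusted p, 0.0385, without replicate 4. On replicates 2 and 4 alone its ratio was 0.77 and its adjusted p was 0.0537.

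The Lama5 promoter window is shown because Lama5 had the highest fitted ratio of the matrix genes. It is the minus strand of chr2:180225810-180226109 in the RefSeq promoter table (GRCm38.p6), with 250 bases before and 50 after the start, written 5′ to 3′, and capitals mark its 4 GC boxes.
Lama5: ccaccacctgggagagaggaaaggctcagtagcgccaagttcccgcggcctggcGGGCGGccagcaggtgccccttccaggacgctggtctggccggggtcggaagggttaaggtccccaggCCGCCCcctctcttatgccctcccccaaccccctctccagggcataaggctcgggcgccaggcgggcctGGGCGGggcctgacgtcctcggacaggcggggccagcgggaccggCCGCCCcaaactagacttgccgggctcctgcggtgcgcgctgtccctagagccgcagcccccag
Of 32851 windows in that table, 35.7% held at least 1 GC box, searched as GGGCGG on both strands. The match describes the letters only.

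Both laminin beta chain genes were higher. Lamb2, the beta 2 chain of neuromuscular, kidney and vascular basement membranes, had ratios of 0.34, 0.58, 0.58 and 0.46. The arrays were close to each other, and the levels did not overlap, with 10.06 to 10.32 in APPswe/PS1dE9 and 9.60 to 9.74 in WT cultures. The fitted Lamb2 ratio was 0.49 ± 0.07 (limma adjusted p = 0.0104).

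Lamb1, the beta 1 chain, had ratios of 0.13, 0.36, 0.43 and 0.29. Every ratio was above 0, with replicate 1 the lowest, but the levels of the 2 genotypes overlapped across arrays. The fitted Lamb1 ratio was 0.30 ± 0.07 (limma adjusted p = 0.0465), and its adjusted p without replicates 2, 3 and 4 in turn was 0.139, 0.201 and 0.152. Without replicates 3 and 4 in turn that of Lamb2 was 0.0961 and 0.0923.

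Lamc1, the gamma 1 chain shared by most laminin trimers, had ratios of 0.04, 0.35, 0.29 and 0.71. Replicate 1 was near 0 and replicate 4 the highest, and the fitted ratio of 0.35 ± 0.09 did not pass (limma adjusted p = 0.0741, with 0.0201 without replicate 1 and 0.258 without replicate 4). The remaining alpha chains had fitted ratios close to 0. Lama1, the alpha 1 chain of embryonic and pial basement membrane, was at -0.13 ± 0.08, with ratios from -0.34 to 0.06 (adjusted p = 0.372). Lama2, the alpha 2 chain of muscle and of vessel-associated glial basement membrane, was at -0.03 ± 0.07, and its second probe was at -0.04.

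Col18a1 encodes type XVIII collagen, the heparan sulfate-bearing collagen from which endostatin is cleaved. Its ratios were 0.22, 1.15, 0.60 and 0.67. Replicate 1 was lowest and replicate 2 highest, and the APPswe/PS1dE9 levels of 8.12 to 8.85 stood above the WT levels of 7.55 to 7.96. Over the 4 arrays the fit gave 0.66 ± 0.15 (limma adjusted p = 0.0416), with adjusted p of 0.205 without replicate 3 and 0.212 without replicate 4. The ratio itself fell to 0.43 without replicate 2 and was 0.89 without replicate 1, and both passed. A second probe gave a narrower spread, with 0.44, 0.67, 0.43 and 0.67 and a fitted 0.55 ± 0.08 (limma adjusted p = 0.0101 in a fit over single probes).

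Col4a1 and Col4a2 encode the alpha 1 and alpha 2 chains of the common type IV collagen trimer and are known to lie head to head. Their promoter windows are shown because both genes are members and share bases. Col4a1 is the minus strand of chr8:11312777-11313076 and Col4a2 the plus strand of chr8:11312555-11312854 (RefSeq promoter table, GRCm38.p6), and capitals mark the 78 bases at chr8:11312777-11312854 that both windows hold, each the reverse complement of the other.
Col4a1: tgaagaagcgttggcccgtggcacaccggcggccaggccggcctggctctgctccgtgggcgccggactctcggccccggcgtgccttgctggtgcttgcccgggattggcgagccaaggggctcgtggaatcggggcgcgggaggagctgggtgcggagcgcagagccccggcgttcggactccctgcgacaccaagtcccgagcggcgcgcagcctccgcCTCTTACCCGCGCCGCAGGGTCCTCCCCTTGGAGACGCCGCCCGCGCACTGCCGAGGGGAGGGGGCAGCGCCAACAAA
Col4a2: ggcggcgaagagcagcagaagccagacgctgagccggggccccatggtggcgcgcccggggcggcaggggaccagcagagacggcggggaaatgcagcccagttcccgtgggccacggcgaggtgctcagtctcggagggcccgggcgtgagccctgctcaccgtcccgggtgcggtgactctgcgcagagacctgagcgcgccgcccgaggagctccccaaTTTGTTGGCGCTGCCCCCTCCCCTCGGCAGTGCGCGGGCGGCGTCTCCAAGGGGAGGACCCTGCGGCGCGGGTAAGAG
The starts used in the table were 21 bases apart, and 73.1% of the shared bases were G or C. The Col4a1 window held 1 GC box and 1 CCAAT box (CCAAT, either strand) and the Col4a2 window 3 GC boxes and 1 CCAAT box, while CCAAT was present in 37.4% of all windows.

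The ratios of Col4a1 were 0.20, 0.30, 0.23 and 0.32. All were above 0 and within a narrow range, although the levels of the genotypes overlapped, because both cultures of replicate 4 were brighter than both cultures of replicates 1 and 2. The fitted ratio was 0.26 ± 0.06 (limma adjusted p = 0.0485), the closest to the threshold of the called genes, and leaving out any 1 array took it to between 0.0633 and 0.179. Col4a2 had ratios of 0.07, 0.43, 0.17 and 0.20. These too were all above 0, and the fitted 0.22 ± 0.08 did not pass (adjusted p = 0.148, with 0.0473 without replicate 1 and 0.513 without replicate 2). The 95% intervals of the fitted ratios, 0.11 to 0.41 for Col4a1 and 0.03 to 0.41 for Col4a2, overlap over most of their length.

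Fibrillar collagens differed in both directions. Of the 9, all measured, Col5a1, Col5a3 and Col11a1 were higher, Col2a1 was lower and 5 did not pass, and the class median was -0.03. It was 0.27 without replicate 1 and 0.14 without replicate 3. The array medians were 0.00, 0.27, 0.09 and 0.28. The levels of the 4 called genes did not overlap between genotypes.

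Col5a1 and Col5a3 are chains of type V collagen, a minor fibril component that sets fibril diameter. The Col5a1 ratios were 0.52, 0.53, 0.63 and 0.89. Replicate 4 was the highest, and the APPswe/PS1dE9 levels of 7.79 to 8.33 were all above the WT levels of 7.26 to 7.44. The fit gave 0.64 ± 0.07 (limma adjusted p = 0.0037; 0.0529 without replicate 4).

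Col5a3 had ratios of 0.19, 0.27, 0.48 and 1.06. Replicate 4 stood well above the others, and the levels of 8.36 to 8.87 against 7.81 to 8.17 did not overlap. The fitted ratio of 0.50 ± 0.10 (limma adjusted p = 0.0329) had an adjusted p of 0.114 without replicate 4, where the ratio was 0.35. Col5a2, the chain that joins Col5a1 in most type V trimers, was at 0.29 ± 0.10 and did not pass (adjusted p = 0.121, with 0.0387 without replicate 1 and 0.360 without replicate 4).

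Col11a1 encodes a chain of type XI collagen, the counterpart of type V in cartilage. Its ratios were 0.41, 0.43, 0.21 and 0.40. Replicate 3 was the lowest, and the levels of 8.80 to 8.94 lay above the WT levels of 8.49 to 8.60. Over the 4 arrays the fit gave 0.36 ± 0.06 (limma adjusted p = 0.0216), with adjusted p of 0.0780 without replicate 3 and 0.128 without replicate 4.

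Col2a1, the chain of type II collagen and the main collagen of cartilage, had the opposite direction. Its ratios were -0.79, -0.65, -0.52 and -0.92. No array was near 0, and the APPswe/PS1dE9 levels of 7.76 to 8.14 lay below the WT levels of 8.29 to 9.06. The fitted ratio was -0.72 ± 0.08 (limma adjusted p = 0.0050), and leaving out replicate 4 gave -0.62 with an adjusted p of 0.0550.

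The most abundant collagens of connective tissue did not pass the test. Col1a1, the alpha 1 chain of type I collagen, had ratios of -0.62, 0.60, -0.40 and 0.28. Its sign changed within each dye orientation. The 95% interval of the fitted -0.03 ran from -0.54 to 0.47, so the 4 arrays do not settle the direction or size of the ratio within those bounds. Col1a2, the partner chain, was at -0.15 ± 0.10 (ratios -0.47, -0.02, 0.09 and -0.17), and Col3a1, of type III collagen, at -0.16 ± 0.07 (-0.16, 0.07, -0.31 and -0.23). Both were below 0 on 3 of 4 arrays. Col27a1, a fibrillar collagen of cartilage, was at -0.08 ± 0.09.

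**Figure D2:**
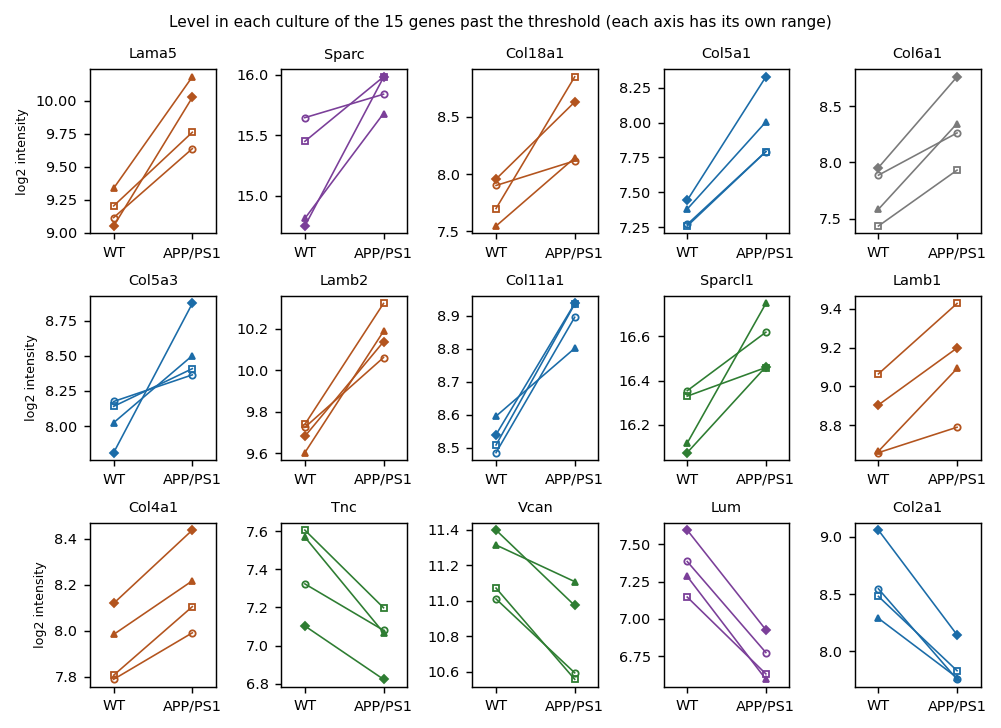
Log2 normalised intensity (y axis, its own range in each panel) of the 15 called genes in the WT and APPswe/PS1dE9 culture of each array, joined by a line, with open markers for replicates 1 and 2 and filled ones for replicates 3 and 4. The lines rise in 11 panels and fall in 4, and the levels overlap between genotypes for Col6a1, Lamb1, Col4a1, Vcan and Tnc.

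Among the other collagens, 1 of 7 measured genes was higher and 0 were lower by limma. At an unadjusted p under 0.05, 3 were higher and 1 lower, where 3258 of 20591 features were higher and 2005 lower. The class median was 0.16, and 0.043 without replicate 4. Col6a1, the alpha 1 chain of the beaded-filament collagen VI, had ratios of 0.38, 0.50, 0.76 and 0.81. All were well above 0, but WT levels of 7.43 to 7.95 overlapped APPswe/PS1dE9 levels of 7.93 to 8.76. The fit gave 0.61 ± 0.06 (limma adjusted p = 0.0030; 0.0556 without replicate 4).

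Col6a2, its obligate partner chain, had ratios of -0.04, 0.23, 0.26 and 0.35. The fitted 0.20 ± 0.07 did not pass (adjusted p = 0.145), and its 95% interval of 0.03 to 0.38 lay below the Col6a1 interval of 0.46 to 0.76. The difference between these 2 chains was not itself tested. The Col6a2 probe was well above background on 3 arrays for APPswe/PS1dE9 and on 2 for WT.

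Col9a1 and Col9a3, chains of the fibril-associated type IX collagen, were at -0.23 ± 0.06 and -0.09 ± 0.06. The Col9a1 ratios of -0.05, -0.18, -0.38 and -0.32 were all below 0 (limma adjusted p = 0.0712), whereas those of Col9a3 were above 0 on replicates 1 and 2 and below 0 on replicates 3 and 4. Col16a1, another fibril-associated collagen, had ratios of 0.60, 0.36, -0.08 and 0.22 (fitted 0.27 ± 0.08, adjusted p = 0.0887). Its second kept probe, at 0.17, also had its lowest ratio on replicate 3. The network collagen Col8a1 (0.02 ± 0.14) and the transmembrane collagen Col23a1 (0.16 ± 0.09) did not pass. Col25a1, the transmembrane collagen known from amyloid plaques, had 4 probes, none of them well above background on more than 2 arrays.

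The brain matrix class had 2 of 7 genes lower, 1 higher and 4 that did not pass, with a median of -0.06 and array medians of -0.10, 0.13, -0.07 and -0.28. Vcan encodes versican, a lectican of immature brain matrix and of oligodendrocyte precursors. Its ratios were -0.42, -0.51, -0.21 and -0.43. Replicate 3 was nearest to 0, and the levels of the genotypes overlapped, since cultures of both genotypes were brighter on replicates 3 and 4 than on replicates 1 and 2. Over the 4 arrays the fit gave -0.39 ± 0.07 (limma adjusted p = 0.0194), with adjusted p of 0.0742 and 0.125 without replicates 3 and 4 in turn. A second probe, for another Vcan transcript accession, had ratios of -0.64, -0.46, 0.22 and -0.10 and did not pass (adjusted p = 0.124).

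Tnc encodes tenascin C, a glycoprotein of neural stem cell niches and reactive tissue. Its ratios were -0.24, -0.41, -0.50 and -0.28. All 4 were below 0, and the levels, 6.82 to 7.20 and 7.10 to 7.61, overlapped. The fitted ratio was -0.36 ± 0.07 (limma adjusted p = 0.0288), with adjusted p of 0.0607, 0.149 and 0.106 without replicates 2, 3 and 4 in turn. Its second probe was at -0.25 (adjusted p = 0.137) and also below 0 on every array. The processed signals of the scanner software gave -0.89 for Tnc, normexp with offset 0 gave -0.57 and no background correction gave -0.44. The source of these differences in size was not tested.

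The Tnc promoter window is shown as that of a gene on the lower side. It is the minus strand of chr4:64046966-64047265 (RefSeq promoter table, GRCm38.p6), and capitals mark its 1 GC box and 1 TATA box, searched as TATAAA on both strands.
Tnc: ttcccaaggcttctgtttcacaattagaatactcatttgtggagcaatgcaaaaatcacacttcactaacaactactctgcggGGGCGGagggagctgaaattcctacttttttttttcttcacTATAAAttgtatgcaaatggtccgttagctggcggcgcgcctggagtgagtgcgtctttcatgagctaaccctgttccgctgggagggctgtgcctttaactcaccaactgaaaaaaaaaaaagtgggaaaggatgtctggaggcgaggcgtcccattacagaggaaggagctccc
A TATA box was found in 13.6% of all windows. The matches describe the letters only, and their distance from the start was not used. Windows were listed for 31 of the 44 genes, 36 windows in all. GC boxes were present in 24 of them, CCAAT boxes in 14, TATA boxes in 5, and an AP-1 site (TGANTCA) in 1, where 7.8% of all windows held an AP-1 site. No motif contains another. The higher genes had 11 windows with 7 GC boxes, 5 CCAAT boxes and 0 TATA boxes counted once per window, and the lower genes had 3 windows, 1 of Vcan and 2 of Tnc. The Tnc windows overlap and hold the same TATA box, and Col2a1 and Lum had no window listed.

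Sparcl1 encodes hevin, a matricellular protein made by astrocytes that takes part in synapse formation. Its ratios were 0.26, 0.13, 0.63 and 0.39. Replicate 3 was the highest, and the levels of 16.46 to 16.75 stood above the WT levels of 16.07 to 16.35. The fit gave 0.35 ± 0.07 (limma adjusted p = 0.0303), with adjusted p of 0.148 and 0.101 without replicates 3 and 4 in turn.

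The 3 remaining lecticans did not pass. Bcan, brevican, had ratios of -0.38, -0.35, 0.00 and -0.36 (fitted -0.27 ± 0.08, limma adjusted p = 0.0869). The other arrays were close together and replicate 3 was apart. A second Bcan probe, for another transcript accession, was above 0 on every array, with 0.40, 0.15, 0.22 and 0.03 (fitted 0.20, adjusted p = 0.173). With the mean over kept probes the Bcan ratio was -0.04, and with median centring in place of loess it was -0.47 and passed (adjusted p = 0.0015). Ncan, neurocan, was at -0.06 ± 0.07 and Acan, aggrecan, at 0.03 ± 0.06, and both changed sign with the dye orientation. Tnr, tenascin R of perineuronal nets, ranged from -0.13 to 0.74 (fitted 0.20 ± 0.15, adjusted p = 0.453). Without replicate 1 it was at 0.41 and passed (adjusted p = 0.0234), and without replicate 2 it was at -0.01 (adjusted p = 0.973).

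In the stromal class of 5 measured genes, Sparc was higher and Lum lower. Sparc, also called osteonectin, binds collagen and is a close relative of Sparcl1. Its ratios were 0.19, 0.53, 0.87 and 1.23. They spanned the widest range of the called genes above 0 on every array, and the APPswe/PS1dE9 levels of 15.68 to 15.98 just cleared the WT levels of 14.75 to 15.64. Over the 4 arrays the fit gave 0.71 ± 0.09 (limma adjusted p = 0.0074), with adjusted p of 0.0514 and 0.0898 without replicates 3 and 4 in turn. A second probe gave 0.32, 0.67, 0.39 and 0.88 and a fitted 0.57 (adjusted p = 0.0263).

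Lum, lumican, a small leucine-rich proteoglycan that regulates collagen fibrils, had ratios of -0.61, -0.52, -0.69 and -0.67. All were below 0, with measured levels of 6.59 to 6.93 in APPswe/PS1dE9 and 7.15 to 7.60 in WT cultures. The fitted ratio was -0.62 ± 0.06 (limma adjusted p = 0.0025; 0.0502 without replicate 4). The probe was well above background on 1 array for APPswe/PS1dE9 and on 4 for WT, so the size of the ratio is uncertain and the gene had no value under the filter on both channels. The processed signals gave -1.74.

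Dcn, decorin, of the same family as Lum, split by dye orientation. Its ratios were 0.11, 0.09, -0.58 and -0.61. Replicates 1 and 2 were slightly above 0 and replicates 3 and 4 well below it. The limma dye term had an unadjusted p of 0.0010 and did not pass after adjustment (adjusted p = 0.125). The orientations hold different cultures, so dye and culture cannot be told apart. The fitted Dcn ratio of -0.25 ± 0.06 did not pass (limma adjusted p = 0.0519). Its adjusted p was 0.0494 with scale normalization, 0.0418 with the filter on both channels of 4 arrays, 0.0457 with the mean over kept probes, 0.0359 with median centring and 0.394 with no dye term. Bgn, biglycan, was at 0.09 ± 0.09 and Fn1, fibronectin, at 0.19 ± 0.14 with ratios from -0.24 to 0.52.

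Across the dye orientations, 4 of the 37 genes (Col9a3, Acan, Ncan and Dcn) had 1 sign on both arrays of the first orientation and the other sign on both arrays of the second, against 18.6% of all features. The dye term passed in 0 features, with 3114 features and 7 of the matrix genes at an unadjusted p under 0.05. Among the called genes the mean ratio of Sparc was 0.36 on replicates 1 and 2 and 1.05 on replicates 3 and 4, that of Col5a3 0.23 and 0.77, that of Col6a1 0.44 and 0.79, and that of Lama5 0.54 and 0.91. Their dye terms did not pass after adjustment (limma adjusted p from 0.230 to 0.310). Col2a1 had means of -0.72 and -0.72, Col18a1 of 0.68 and 0.63, and Lamb2 of 0.46 and 0.52, so these 3 differed little between the orientations.

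**Figure D3:**
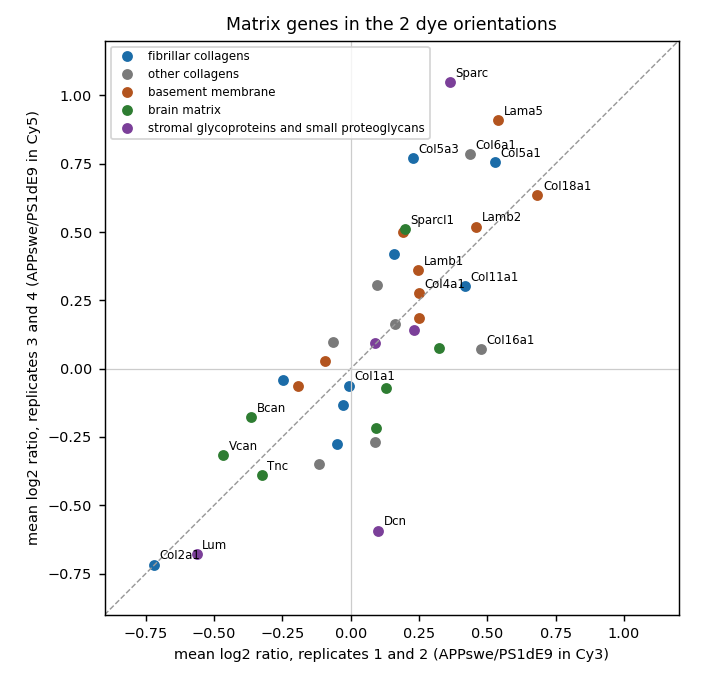
Mean log2 ratio of each of the 37 matrix genes on replicates 1 and 2 (x axis, APPswe/PS1dE9 in Cy3) and on replicates 3 and 4 (y axis, APPswe/PS1dE9 in Cy5), coloured by class, with the called genes and 4 others labelled; the dashed line marks equal means. All 15 called genes lie in the quadrants of equal sign, and Dcn, at the lower right, lies farthest from the dashed line among the genes in the quadrants of opposite sign.

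Set side by side, the basement membrane median was above the fibrillar median on 4 of 4 arrays, by 0.13, 0.10, 0.21 and 0.04, a mean of 0.12 ± 0.07 (SD, n = 4 arrays). It was above the brain matrix median by 0.23, 0.23, 0.36 and 0.60, a mean of 0.36 ± 0.17 (SD, n = 4 arrays). The gap to the fibrillar class was small on replicate 4. In the fit of replicates 2 and 4 alone the fibrillar median was 0.41 and the basement membrane median 0.33. The other collagens had array medians of 0.16, 0.18, -0.08 and 0.35. These lay above the basement membrane medians of 0.13 and 0.32 on replicates 1 and 4 and below them on replicates 2 and 3. These are descriptions of chosen genes, and no test was made of them.

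**Figure D4:**
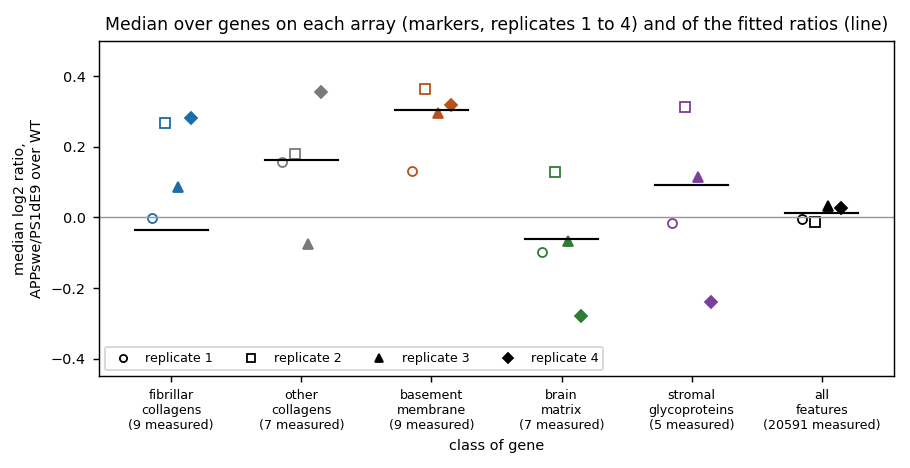
Median log2 ratio (y axis) over the measured genes of each class (x axis) on each array, with markers for replicates 1 to 4 and a line for the median of the fitted ratios. The 4 basement membrane medians lie between 0.13 and 0.36, the brain matrix medians between -0.28 and 0.13, and all features lie near 0.

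Genes that make, bind and modify the matrix were counted from 8 lists of 171 genes. Over all features limma called 8.25% higher and 2.28% lower. At an unadjusted p under 0.05, 3258 of 20591 features were higher and 2005 lower. Of 25 measured genes of collagen maturation, 6 were higher and 1 lower (median 0.11). They included Fkbp10, a prolyl isomerase that assists collagen folding (0.59 ± 0.06, limma adjusted p = 0.0035), and Loxl2, a lysyl oxidase that crosslinks type IV collagen (0.64 ± 0.09, limma adjusted p = 0.0094). Pcolce2, an enhancer of procollagen processing, was lower (-0.28 ± 0.06).

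Of 10 other collagens, limma called 3 higher and 0 lower (median 0.21), with 6 higher and 0 lower at an unadjusted p under 0.05. Col4a6 (0.70 ± 0.06) and Col4a5 (0.56 ± 0.07), chains of a further type IV trimer, were above 0 on every array, with lowest ratios of 0.44 and 0.40. Among 12 other basement membrane genes it called 4 higher and 0 lower (median 0.11), with 5 higher and 2 lower unadjusted, and 1 of the 4, Frem1, was kept only through APPswe/PS1dE9. Nid2, a nidogen that links laminin to type IV collagen, was at 0.49 ± 0.07.

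Among 20 measured hyaluronan and lectican partners, 3 were higher and 1 lower (median 0.06). Hapln1, the link protein that ties lecticans to hyaluronan, was at 0.73 ± 0.07 and the hyaluronan receptor Cd44 at 0.56 ± 0.07, while Chst3, a chondroitin sulfotransferase, was at -0.30 ± 0.07. Of 13 heparan sulfate genes 2 were higher and 1 lower (median 0.16), namely the syndecans Sdc4 (0.74 ± 0.08) and Sdc2 (0.53 ± 0.09) and the glypican Gpc2 (-0.60 ± 0.09).

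The list of other matrix glycoproteins had 9 of 25 genes higher and 1 lower (median 0.16), and 2 of the 9, Thbs2 and Spp1, were kept only through APPswe/PS1dE9, being well above background on 1 WT array. Tgfbi, a TGF-beta-induced integrin ligand, had the largest ratio of the 8 lists, at 1.42 ± 0.07 with 1.32, 1.51, 1.33 and 1.50 on the arrays. Fbln7, a fibulin, was at 0.68 ± 0.07 and Mfap2, of microfibrils, at -0.26 ± 0.06. Of 7 other small leucine-rich proteoglycans 1 was higher, Fmod, fibromodulin (0.77 ± 0.14), in contrast to its relative Lum. Of 15 matrix receptors limma called 4 higher and 0 lower (median 0.18), with 8 higher and 0 lower at an unadjusted p under 0.05. Among them were the collagen receptor Ddr2 (0.85 ± 0.08) and integrin beta 5, Itgb5 (0.48 ± 0.09).

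Cell type markers moved between the genotypes in the same cultures. Their counts stand beside 8.25% of all features higher and 2.28% lower. Of 11 measured choroid plexus and ependyma markers, 9 were higher (median 1.06), with a summed normalised intensity of 11718 to 16813 in APPswe/PS1dE9 and 6372 to 7294 in WT cultures. Of 12 astrocyte markers 7 were higher (median 0.37), with sums of 205405 to 229966 and 140411 to 182630. Of 14 microglia and macrophage markers 13 were higher (median 1.83), and 7 of these were kept only through APPswe/PS1dE9. The sums were 14907 to 19230 and 10069 to 12269 over the 13 markers with values on every array. Of 12 neuron markers 2 were higher and 4 lower (median -0.16). Of 10 oligodendrocyte lineage markers limma called 0 in either direction (median 0.06). At an unadjusted p under 0.05, 1 was higher and 1 lower, where 3258 of 20591 features were higher and 2005 lower.

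Fibroblast and mural markers, of which 11 of 21 were measured, had 2 genes higher and 1 lower (median 0.46), with sums of 35388 to 51063 against 26693 to 36322. The array medians of this list were -0.15, 0.51, 0.18 and 0.55. The mural markers Rgs5, Kcnj8 and Abcc9 and the fibroblast markers Dpt and Mgp were not kept. Of 6 measured endothelial markers of 12, 2 were higher, 1 of them (Flt1) kept only through APPswe/PS1dE9 (median 0.22, sums of 4419 to 5072 against 3786 to 4763), and Cdh5, Tek, Tie1, Cldn5, Emcn and Esam were not kept. The part of any of these cell types in the matrix ratios was not tested.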

How the data were processed

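Per the file headers, Feature Extraction 11.0.1.1 read the arrays, whose annotation is of build mm9. The authors deposited median intensity values of spots and local background for both channels, not normalized, with processed intensity values and a log10 ratio. The authors' deposited value table holds log2 ratios of the processed signals. The median signals were used, with normexp (offset 50) and loess within arrays in limma 3.58.1 (R 4.3.3), control and outlier spots at weight 0. The offset draws ratios of dim spots towards 0. This left 26912 of 55681 probes and 20591 features. Log2 ratios were fitted by a model of genotype plus dye (lmFit, eBayes, 2 residual and 4.13 prior degrees of freedom), so the SE leaves out differences between dye orientations. Names came from RefSeq (GRCm38.p6). The number of arrays limits the precision.

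Every member with a kept probe could be named. From each list of related genes the 2 of smallest p in each direction past the threshold were named, except 1 that is not reported here, and Thbs2, Spp1, Frem1, Flt1 and the markers without a kept probe were chosen after their values were seen. The members and lists were chosen with earlier results of these data known. Alternatives changed the signal, background correction, normalization, filter, probe choice, dye term and arrays.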

Additional observations from a re-analysis of the deposited data

Results flagged for a closer look

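Single arrays stood apart for 2 of the 37 measured genes. For Col11a1, replicate 3 was at 0.21, while the other arrays were between 0.40 and 0.43. For Bcan, replicate 3 was at 0.0045, while the other arrays were between -0.38 and -0.35. Chance alone marks about 1 in 20 such groups of 4 values.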

How the results depend on the processing

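Among the 15 alternatives no fitted ratio of a called gene changed sign, with 14 run for Lum, which had no value under the filter on both channels. The 11 higher genes became 4 with the processed signals, 4 with the authors' value table and 7 with median centring in place of loess. The count was 6 with normexp at offset 0, 6 with no background correction and 7 with no dye term. With no filter on dim probes 5 of 43 matrix genes were higher, and 37018 features were tested. The share of all features called higher, 8.25% in the main fit, fell too. It was 3.49% with the processed signals, 3.52% with the authors' table and 6.35% with median centring. It was 6.51% with offset 0, 6.73% with no background correction, 6.63% with no dye term and 2.59% with no filter. On the arrays of matching sex (replicates 2 and 4) 1 was higher and 1 lower, and with no filter 2 were lower. Leaving out 1 array gave 1 to 14 higher and 0 to 4 lower, lowest without replicate 4. The fibrillar median of -0.03 was -0.27 with the processed signals, -0.27 with the authors' table, 0.13 with a filter on both channels of 4 arrays and 0.41 on the arrays of matching sex, and -0.081 to 0.27 without 1 array, so its sign is not settled. The basement membrane median stayed between 0.22 and 0.36, but was below the fibrillar one on the arrays of matching sex (0.33 against 0.41). The median of the other collagens was 0.043 to 0.23 without 1 array. Over all features, 1698 higher and 470 lower (78.3% higher) became 719 and 240 with the processed signals, 725 and 238 with the authors' table, 1308 and 1307 (50.02% higher) with median centring, and 519 and 29 without replicate 3, 368 and 4 without replicate 4. The cause of these shifts was not tested. Every ratio pairs the 2 cultures of an array.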
